A study of Mus musculus with 28 samples.

Results

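The genes described here are those whose transcription was followed when bicuculline (BIC) was applied to mouse forebrain cultures carrying a short hairpin RNA against Rai1, the gene for a chromatin-associated protein whose loss causes Smith-Magenis syndrome. They were taken by 1 rule, a mean normalized count of at least 50 over all libraries, which 12333 of 22919 listed genes met. The rule used no contrast between treatments, but its mean includes the BIC libraries, so a gene low in vehicle could meet it through BIC. Just inside the minimum lay Triqk, with a mean of 50.03 and a log2 change of 0.06 under BIC in the authors' deposited table. Just outside lay Il4ra, with a mean of 49.99 and a log2 change of -0.42 in the authors' deposited table.

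Both groups came from CD1 mouse embryos of embryonic day 18, with cortex and hippocampus of several embryos pooled into each replicate, and held neurons, astrocytes and oligodendrocyte precursor cells. All cultures received lentivirus with the Rai1 hairpin (shRai1) at day in vitro 14, and on day 17 they were given either BIC (20 µM) or vehicle (water) for 4 hours. Bromouridine, which cells build into new RNA, was present for the last 20 minutes, and the labelled RNA was captured and sequenced (Bru-seq), so a read reports transcription late in the treatment and not the store of mature RNA. There were 3 libraries with BIC and 3 with vehicle, out of 16 Bru-seq libraries in 6 groups, and parallel cultures with a control hairpin (shCtrl) had 2 libraries with BIC and 2 with vehicle. RAI1 ChIP-seq samples (12) were not analysed here.

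Bicuculline blocks inhibitory GABA-A receptors, so that excitatory neurons in a culture fire in synchronous bursts. Calcium entry during the bursts activates kinases and transcription factors such as CREB, SRF and MEF2. These first switch on immediate early genes (Fos, Npas4, Arc, Egr1), and the factors these encode then act on later genes for growth factors, neuropeptides, synaptic proteins and feedback inhibitors. The hairpin stays on in both groups, so the contrast of BIC against vehicle is a contrast of activity within cultures labelled as Rai1 knockdown.

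The authors' values per gene were a mean, a log2 change with its standard error (SE) and an adjusted p-value for each comparison. Values of single libraries were not used here, so the spread between the 3 libraries of a group appears only through the SE, and whether single libraries overlap cannot be given. Depth per library is unknown. Levels below are normalized counts implied for each group by the authors' fit, that is, solved here from the mean and the deposited log2 changes. The SE of the log2 change had a median of 0.11 over the 12333 genes, with a range of 0.051 to 0.36. The targeted gene Rai1 had implied levels of 6766 normalized counts in vehicle and 7113 under BIC, a log2 change of 0.07 (SE 0.064, adjusted p 0.40) in the authors' deposited table. An shRNA acts on finished transcripts, so the nascent level of Rai1 gives no check of the arm's label. Rai1 shares its listed interval (mm9, chr11:59918515-60034106) with another gene.

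In the libraries labelled shRai1, most genes above the minimum changed under BIC, about as many down as up. The authors' deposited table called 6867 of the 12333 genes (55.7%) at an adjusted p under 0.05, of which 3315 rose (26.9%) and 3552 fell (28.8%). Among these called genes the changes were mostly modest, with a median absolute log2 change of 0.52, and 3250 of them (47.3%) changed by less than 0.5. At least 2-fold rises numbered 624 (5.06%) and at least 2-fold falls 329 (2.67%), and at least 4-fold changes comprised 81 rises and 14 falls. At 8-fold or more there were 13 rises and 1 fall. Of these rises, 7 had an implied vehicle level under 50, as did 49 of the 624 rises of at least 2-fold, so they met the minimum through groups in which they were higher. Of the 329 falls, 53 had an implied level under 50 with BIC. The median log2 change of all 12333 genes was -0.03.

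**Figure D1:**
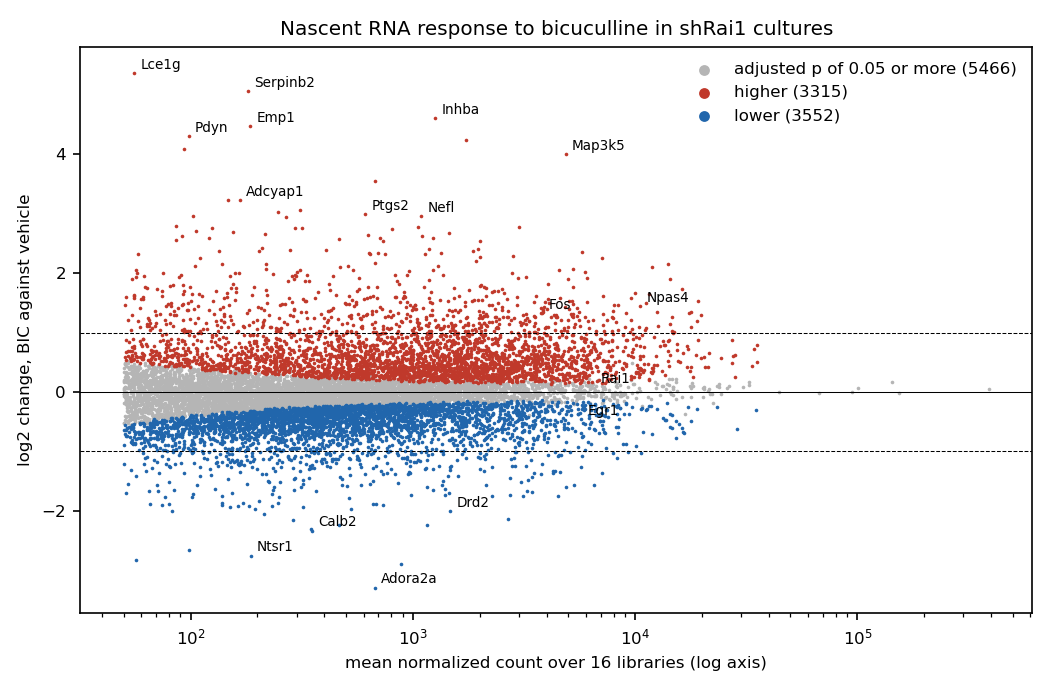
Log2 change under BIC against vehicle in shRai1 cultures (vertical axis) by mean normalized count over 16 libraries (horizontal log axis), 1 point per gene, coloured by direction where the adjusted p was under 0.05. Dashed lines mark 2-fold. Of the 13 rises of at least 8-fold, 7 had an implied vehicle level under 50, and Adora2a was the 1 fall of that size.

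The 2 largest rises were those of Lce1g and Serpinb2. Lce1g, a gene of the late cornified envelope family, went from an implied 4.24 normalized counts in vehicle to 176 under BIC, and its log2 change was 5.38 (SE 0.34, adjusted p 7.8e-56) in the authors' deposited table. Serpinb2 (chr1:109408000-109422177 in mm9), an inhibitor of plasminogen activators, went from 16.9 to 570.2, a log2 change of 5.08 (SE 0.36) in the authors' deposited table. Both genes were low in vehicle. Inhba (chr13:16106308-16119044), which encodes the activin A subunit, started higher and went from 150.02 to 3660, a 24.4-fold rise (log2 4.61, SE 0.20, adjusted p 2.1e-112 in the authors' deposited table). Emp1, a membrane protein of epithelia, went from 22.5 to 503 (log2 4.48, SE 0.22), and Pdyn, the dynorphin precursor, from 14.0 to 276 (log2 4.31, SE 0.26) in the authors' deposited table. Ism1, which encodes the secreted protein isthmin, went from 271 to 5161 and Ifi202b, an interferon-activated gene, from 15.04 to 256.3. The other members of the 15 were, in falling order, the kinase gene Map3k5, Cgref1 (shared interval), Sp7 (osterix, a bone transcription factor), the neuropeptide gene Adcyap1, the kinase gene Pim1, Fndc9 (shared interval), Ptgs2 (cyclooxygenase) and Tes. Their log2 changes ran from 4.01 for Map3k5 to 2.96 for Tes in the authors' deposited table.

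The largest score, the log2 change over its SE, was that of Map3k5, the stress kinase ASK1. Over its interval of 208 kb (chr10:19654332-19862556) its implied level went from 906 normalized counts to 14586, a 16.1-fold rise with an SE of 0.083 on a log2 change of 4.01 in the authors' deposited table. Per kb of gene this was a step from 4.35 to 70.0 counts. The other 9 of the 10 genes with the largest scores were all higher under BIC. Arid5b, a chromatin-associated factor, went from 2867 to 12081, Nefl, the neurofilament light chain, from 345 to 2687, and Pnoc, the nociceptin precursor, from 1538 to 7490. Syt4, a synaptotagmin of dense-core vesicles, went from 492 to 2979, Ndc1, a nuclear pore protein, from 296 to 1986, and Myo3b, an unconventional myosin, from 454 to 2814. Tet3, an enzyme that oxidises methylcytosine, Ifrd1 and Cgref1 completed this set, all with intervals shared with another listed gene.

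The 15 largest falls included 3 receptor genes, Adora2a, Ntsr1 and Drd2. Adora2a (chr10:74779622-74797537), a receptor for adenosine, went from 686 normalized counts to 69.7, a 9.85-fold fall (log2 -3.30, SE 0.15, adjusted p 1.0e-99 in the authors' deposited table). Ntsr1 (chr2:180234681-180279684), a neurotensin receptor of layer 6 neurons, went from 221 to 32.6, a 6.78-fold fall. Drd2 (chr9:49148767-49215319), the dopamine D2 receptor, went from 1486 to 370 (log2 -2.01, SE 0.11 in the authors' deposited table). Calb2 (calretinin) went from 478 to 94.5, the calcium-binding Tesc from 233 to 46.7, and Slc24a4, a sodium-calcium-potassium exchanger, from 1132 to 239.9. St6galnac3, a sialyltransferase with an interval of 523 kb, went from 3145 to 710.4, and Gprin3 from 503 to 106.6. Apcdd1, an inhibitor of Wnt signalling, had a log2 change of -2.17 (SE 0.15) in the authors' deposited table. The other 6 of the 15 have intervals shared with another listed gene. Among them Cdh23, a cadherin (-2.90), and Fxyd5 (-2.83) came directly after Adora2a and Ace, a peptidase (-2.66), directly after Ntsr1, and Kcnh3 (-2.06), Ap1g2 and Ppp1r1b (-1.97) were further down in the authors' deposited table.

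**Figure D2:**
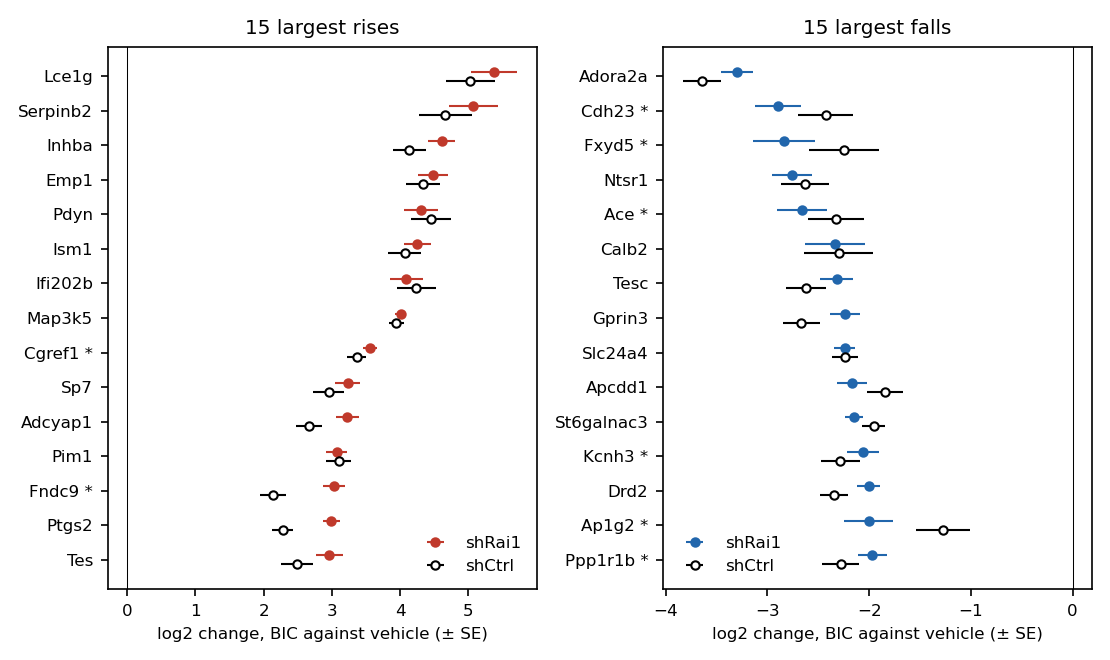
Log2 change under BIC against vehicle (horizontal axis, bars are SE) for the 15 largest rises and 15 largest falls in shRai1 (filled) and the same genes in shCtrl (open), with an asterisk for a shared interval. Each of the 30 genes has the same sign in both arms, from 5.38 for Lce1g to -3.30 for Adora2a in shRai1.

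Genes with the densest nascent signal, in counts per kb, included 4 immediate early genes. Npas4, an activity-dependent factor of neurons, went from 1545 to 4191 counts per kb and Fos from 914 to 2299. Arc, which acts at synapses in AMPA receptor traffic, went from 847 to 2245, while Egr1 went the other way, from 2145 to 1559. The other 6 of this set were short or structural RNAs and loci with small rises. Rmrp, Rnu11, Vaultrc5, Olfr613, Olfr856-ps1 and Zfp488 had log2 changes of 0.21 to 0.56 in the authors' deposited table.

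Transcription factors of the immediate early class split by family, where 26.9% of all genes rose and 28.8% fell. Of 11 AP-1 genes above the minimum (Fos, Jun, Maf and Atf3 relatives), 10 rose and none fell, with a median log2 change of 1.24 against -0.03 for all genes. Atf3 went from 411 to 2804 normalized counts and Jun from 667 to 2474. Fos (1.33), Fosb (1.27), Maff (1.25) and Fosl1 (1.24, shared interval) followed in the authors' deposited table, and Jdp2 (0.07) did not pass. Of the 6 Egr and Nab genes, 4 fell, 1 rose and the median was -0.62. Egr3 (chr14:70477252-70482420) went from 2621 to 803, a 3.26-fold fall, and in the authors' deposited table Egr2 (-1.13), Nab2 (-0.78, shared interval) and Egr1 (-0.46, SE 0.12) fell too. Egr4 had a value of -0.04 in the authors' deposited table and did not pass, and the rise was that of the corepressor Nab1 (0.72). Of the 3 Nr4a orphan receptors, Nr4a2 (1.60) and Nr4a3 (0.63) rose in the authors' deposited table, and Nr4a1 (0.49) did not pass. Among 21 other inducible factors, 14 rose and 3 fell, with a median of 0.90. Klf4 (2.80), Csrnp1 (2.54), Nfil3 (1.77) and Rel (1.52) rose most in the authors' deposited table, and the falls were Klf10 (-0.98), Srf (-0.72, shared interval) and Mef2d (-0.46).

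Feedback regulators of MAP kinase signalling were mostly higher, where 26.9% of all genes rose and 28.8% fell. Of 16 Dusp phosphatases and Sprouty and Spred inhibitors, 12 rose and 2 fell, and the median was 0.56. Dusp1 went from 1021 to 4925 normalized counts, and in the authors' deposited table it was followed by Dusp4 (1.24), Spry2 (1.03) and Spred1 (0.81). Dusp7 (-0.56) and Dusp8 (-0.26) were the 2 that fell in the authors' deposited table. The kinases tied to activity counted 11 rises and 5 falls among 20, with Pim1 (3.07), the synaptic kinase Plk2 (2.06), Sik2 (1.92, shared interval) and Sik3 (1.34) at the top and Camkk2 (-0.84), Dapk1 (-0.61), Camk2a (-0.53, shared interval) and Camk2b (-0.45) at the bottom in the authors' deposited table. RGS proteins, which switch off G-protein signals, had 8 rises and 5 falls among 14, between Rgs6 (2.26, shared interval) and Rgs14 (-1.68) in the authors' deposited table. Phosphodiesterases and adenylyl cyclases had 13 rises and 7 falls among 21, from Pde3a (1.59, shared interval) to Adcy5 (-1.57) in the authors' deposited table. The falls among kinases and among phosphodiesterases and cyclases were near the share of all genes.

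Secreted factors rose more often than they fell. Of 21 growth factor genes, 14 rose and 4 fell, with a median of 0.70. Beside Inhba, Bdnf (chr2:109514857-109567200) went from 1529 to 4891 normalized counts, a 3.20-fold rise, and in the authors' deposited table Bmp2 (2.63) rose. The falls in the authors' deposited table were Inhbb (-0.97), the other activin subunit, Ntf3 (-0.80), Tgfa (-0.74) and Nrg3 (-0.29, shared interval). Their receptors had 6 rises and 7 falls among 18, close to the shares of all genes (26.9% and 28.8%), and a median of -0.14. Rises were led by Alk (1.52), Fgfr2 (1.26) and Ntrk2 (0.72) in the authors' deposited table, and falls by the activin receptor Acvr2b (-1.12), Ngfr (-0.76) and Pdgfrb (-0.57). Neuropeptides, granins and the convertases that process them had 14 rises and 2 falls among 19, with a median of 0.89. Adcyap1 went from 44.8 to 420.0, Scg2 (secretogranin) from 299 to 1806 and Pcsk1 (prohormone convertase) from 591 to 2949. Grp (2.42), Nts (1.83) and Penk (1.03) also rose in the authors' deposited table, while Chgb (-0.43) and Scg5 (-0.37) fell.

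The lists of synaptic genes each held rises and falls, and are read against all genes, of which 26.9% rose and 28.8% fell. The falls among scaffolds, the rises among glutamate receptors and the falls among proteases, serpins and matrix genes were near these shares. Postsynaptic scaffolds had 7 rises, led by Arc, and 5 falls among 16, and in the authors' deposited table Dlgap3 (1.09) and Dlg1 (1.07) rose while Homer2 (-0.53) and Shank1 (-0.39) fell. Glutamate receptors had 6 rises and 9 falls among 22. The rises in the authors' deposited table were led by the kainate subunits Grik1 (1.02) and Grik2 (1.02), and the falls by the metabotropic receptors Grm4 (-1.74) and Grm2 (-1.37) and by Grik3 (-1.34, shared interval). GABA receptor and synthesis genes had 10 rises and 3 falls among 19, with a median of 0.41. The synthesis enzyme Gad2 went from 4762 to 14525 normalized counts over a shared interval, and in the authors' deposited table Gabra2 (1.38) and Gabrg1 (1.27) rose while Gabbr2 (-0.71) and Gabra3 (-0.51, shared interval) fell. Synaptic vesicle genes had 10 rises and 10 falls among 32, near the shares of all genes (26.9% and 28.8%). Sv2c (1.77), Syt10 (1.35) and Snap25 (0.96) followed Syt4 on the high side in the authors' deposited table, with Syt17 (-1.21), Syt16 (-1.11) and Syt2 (-0.93) on the low side. Pentraxins and synaptic adhesion genes had 12 rises and 3 falls among 19, and in the authors' deposited table Pcdh17 (2.38, shared interval), Pcdh8 (1.68), Cbln2 (1.60) and Lrrtm1 (1.57, shared interval) were highest and Cbln1 (-1.04) lowest. Proteases, serpins and matrix genes had 8 rises and 4 falls among 16, with rises of the perineuronal proteoglycan Acan (2.42), the protease Adamts1 (2.34) and Tnc (2.13) after Serpinb2, and the largest fall at Tnr (-0.98), in the authors' deposited table.

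Ion channel genes were counted against the 26.9% of all genes that rose and the 28.8% that fell. Of 39 potassium channel genes, 18 fell and 9 rose, with a median of -0.15. The authors' deposited table placed Kcnh3 (-2.06, shared interval), Kcnc4 (-1.52) and Kcnj9 (-1.09) among the lowest, and Kcnj6 (1.39), Kcnh7 (0.93), Kcnj3 (0.78) and Kcnf1 (0.63) highest. Sodium, calcium and HCN channels had 9 falls and 5 rises among 20, and the rises of both lists were near the share of all genes, with Scn4b (-1.94) lowest in the authors' deposited table.

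Genes enriched in striatal and deep-layer neurons had the lowest median of any function list, -0.98, with 10 falls and 3 rises among 17, where 28.8% of all genes fell and 26.9% rose. Besides Adora2a, Ntsr1, Gprin3, Drd2, Ppp1r1b and Scn4b, the falls included Gpr6, Foxp1, Foxp2 and Bcl11b, from -1.18 to -0.60 in the authors' deposited table. The rises were Pde10a (1.30), Drd1a (0.68) and Fezf2 (0.56) in the authors' deposited table, so the D1 and D2 receptor genes moved apart. In bulk cultures fewer cells of a type and less RNA per cell cannot be told apart. Markers of cell types were set beside these changes and are read against the same shares of all genes. Neuron markers had 9 rises and 6 falls among 16, with Nefl (2.96), Nefm (2.76, shared interval) and Gad2 (1.61, shared interval) highest and Neurod6 (-1.87), Slc17a7 (-0.58, shared interval), Rbfox3 (-0.54) and Camk2a (-0.53, shared interval) lowest in the authors' deposited table. The summed implied level of the 16 was 93889 in vehicle and 127253 under BIC. Much of this gain came from Gad1 (13208 to 23842) and Gad2 (4762 to 14525), both with shared intervals. Over all 12333 genes the summed level also rose, from 1.59e+07 to 1.84e+07, and the sums of the marker lists are to be read beside that. Of 15 astrocyte markers, 13 were above the minimum, 2 rose and 4 fell, and the summed level of the list was 16016 in vehicle and 16121 under BIC. The defining markers Gfap (0.03), Aldh1l1 (0.06) and Slc1a2 (0.02) did not pass in the authors' deposited table, while Sox9 (1.02) rose. Oligodendrocyte-lineage markers had 8 of 14 above the minimum and 1 call, a fall of Mbp (-0.64 in the authors' deposited table), with summed levels of 7172 and 7586. Most of both sums came from Lhfpl3 (shared interval, not called), with 4988 in vehicle and 5753 under BIC, so the sums say little about the other markers. Olig1, Olig2, Cspg4 and Pdgfra (shared interval), defining genes of the precursor cells that the labels name, had means of 189 to 345 normalized counts over all 16 libraries. Their implied shRai1 levels ran from 153 to 289 in vehicle and from 153 to 309 under BIC. Microglial and vascular markers were mostly near the floor, with 11 of 13 and 12 of 13 genes under the minimum. Above it, the microglial receptor gene Cx3cr1 rose (0.60, adjusted p 0.0071) and the mural receptor gene Pdgfrb fell (-0.57, adjusted p 0.0022) in the authors' deposited table. The vascular summed level was 378 in vehicle and 347 under BIC. Tyrobp, C1qa, C1qb, C1qc and Tmem119 had means of 0.79 to 1.17, and Cldn5 had a mean of 0. The part of cell makeup in these results was not tested.

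The lists for metabolism, stress, clock and chromatin are likewise to be read against 26.9% of all genes higher and 28.8% lower. Cholesterol synthesis genes had 12 falls and 6 rises among 22, with a median of -0.32. Lss (shared interval) and Dhcr7 were lowest, followed by Mvk (-0.95) and Fdps (-0.95), and Ebp (0.91) and Pmvk (0.54) were highest in the authors' deposited table. Nuclear genes of the respiratory chain had 14 falls and 1 rise, Cycs, among 25, and none reached 2-fold: the range was -0.52 to 0.27. Genes of the integrated stress response had 13 rises and 1 fall among 18, with a median of 0.44, and in the authors' deposited table the rises included Cebpb (1.03), Ppp1r15a (0.82), Asns (0.78) and Sesn2 (0.75), while Ddit4 (-0.64) fell and Ddit3 (-0.30, shared interval) did not pass. Chaperones had 6 rises, led by Hsph1 (1.37 in the authors' deposited table), and 1 fall among 15. Glycolysis genes had 7 rises and 3 falls among 19, with Hk2 (1.13) and Slc2a3 (0.98) highest and Pfkl (-0.56) lowest in the authors' deposited table. Of 7 prostaglandin and adenosine genes, Ptgs2 rose, from 193 to 1539 normalized counts, and Adora2a, Adk and Ptges2 fell. Clock genes had 5 rises, near the share of all genes, and 8 falls among 18, with Nfil3 (1.77), Rorb (1.30) and Cry1 (0.88) at the top and the output factor Dbp (-1.97, shared interval) and Hlf (-1.08) at the bottom in the authors' deposited table. Chromatin regulators had 17 rises and 6 falls among 35. The growth-arrest and DNA-damage genes Gadd45g (2.34), Gadd45b and Gadd45a (1.21, shared interval) rose with Tet2 (1.02) and Tet3 (2.15, shared interval) in the authors' deposited table, while Tet1 (-1.05), Kdm2b (-1.27) and Dnmt3a (-0.49, shared interval) fell.

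**Figure D3:**
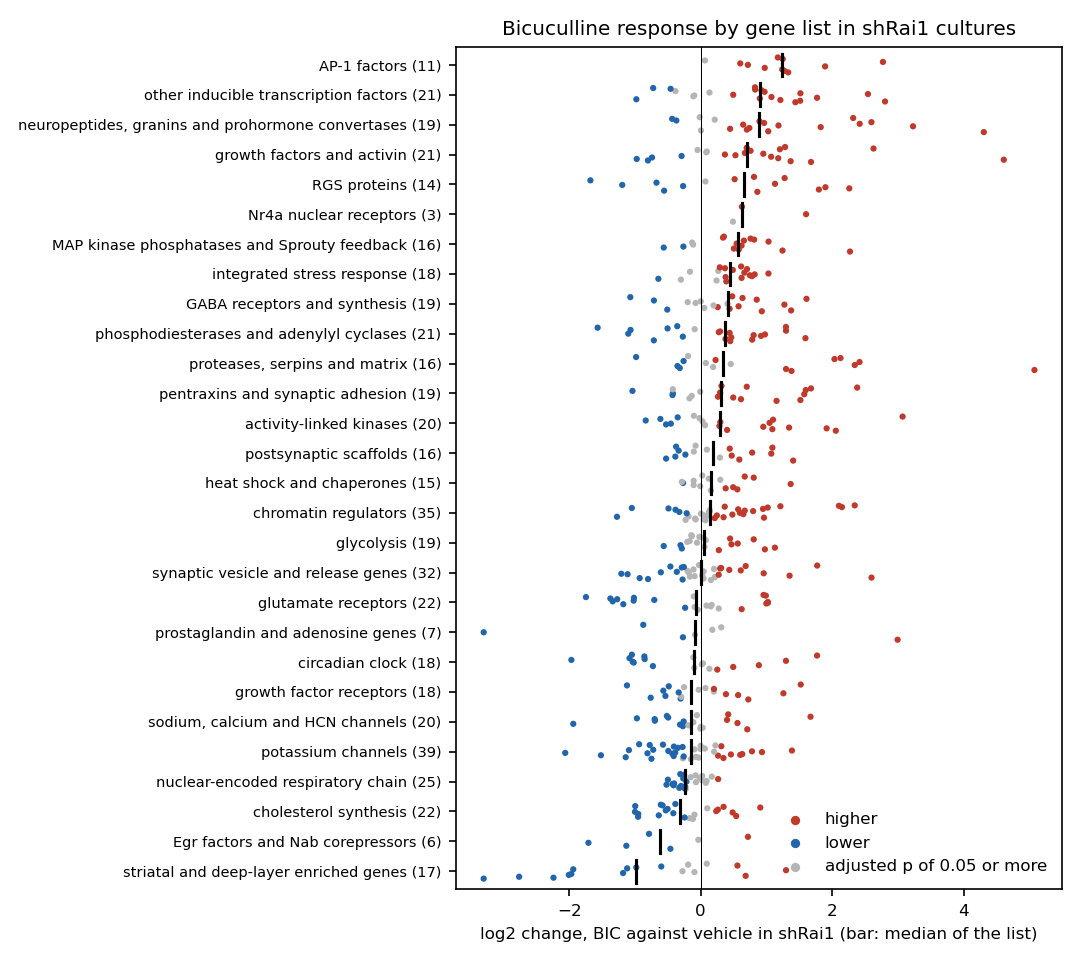
Log2 change under BIC against vehicle in shRai1 (horizontal axis) for each member of 28 lists of genes by function (vertical axis, with the number of members), coloured by direction where the adjusted p was under 0.05, with a bar at the list's median. Medians run from 1.24 for AP-1 factors to -0.98 for striatal and deep-layer enriched genes.

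The response was then set beside that of the control hairpin, which shares no library with it. In the authors' deposited table for shCtrl, 2649 of the 12333 genes rose (21.5%) and 2729 fell (22.1%) under BIC, and 526 (4.26%) and 312 (2.53%) did so by at least 2-fold. Of the 624 rises of at least 2-fold in shRai1, 615 (98.6%) were called higher in shCtrl, and of the 329 falls, 324 (98.5%) were called lower. In the other direction, 525 of 526 (99.8%) and 309 of 312 (99.0%) were called the same way in shRai1. The Pearson correlation of the log2 changes over the 12333 genes was 0.95, given as a description. The 624 rises, chosen by their shRai1 value, had a median log2 change of 1.33 in shRai1 and 1.23 in shCtrl, and the 329 falls had medians of -1.23 and -1.17.

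The difference between the arms was tested for each gene as the log2 response in shRai1 minus that in shCtrl, with a two-sided Wald test adjusted over 21192 genes by the Benjamini-Hochberg method. It passed for 4 genes (0.0189%), and each had the larger response in the libraries labelled shRai1. Syt4 (chr18:31597462-31607069) had a difference of 0.66 (SE 0.14, adjusted p 0.018), and its implied levels went from 492 to 2979 in shRai1 and from 738 to 2824 in shCtrl. Scg2 (chr1:79431244-79436665) had a difference of 0.85 (SE 0.19, adjusted p 0.036), with levels from 299 to 1806 in shRai1 and from 492 to 1651 in shCtrl. Ifrd1 differed by 0.54 (SE 0.12, adjusted p 0.036), from 2653 to 13596 in shRai1 and from 3881 to 13697 in shCtrl. Zdbf2, an imprinted gene, differed by 0.65 (SE 0.13, adjusted p 0.018), from 1107 to 1573 in shRai1 and from 1626 to 1477 in shCtrl. In all 4 genes the implied vehicle level was lower in shRai1, and the levels under BIC lay closer together than those in vehicle. Levels were not tested between arms here. Ifrd1 and Zdbf2 have shared intervals.

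Differences of other named genes did not pass in either direction. Fos had a log2 response of 1.33 in shRai1 and 0.42 in shCtrl in the authors' deposited tables, a difference of 0.91 (SE 0.33, adjusted p 1.00). Its implied vehicle level was 3078 in shRai1 and 5072 in shCtrl. Npas4 differed by 0.90 (SE 0.33, adjusted p 1.00) with vehicle levels of 8679 and 13569, and Penk by 0.74 (SE 0.18, adjusted p 0.16) with vehicle levels of 755 and 1298. Acan had the opposite sign, -0.60 (SE 0.19, adjusted p 1.00), with vehicle levels of 952 in shRai1 and 676 in shCtrl. The median SE of the difference was 0.17, and shCtrl contributed only 2 libraries to each group. By their labels, the vehicle and BIC groups of shCtrl have only replicate 2 in common, while those of shRai1 carry the same replicate numbers. The part of this in the differences between arms was not tested.

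**Figure D4:**
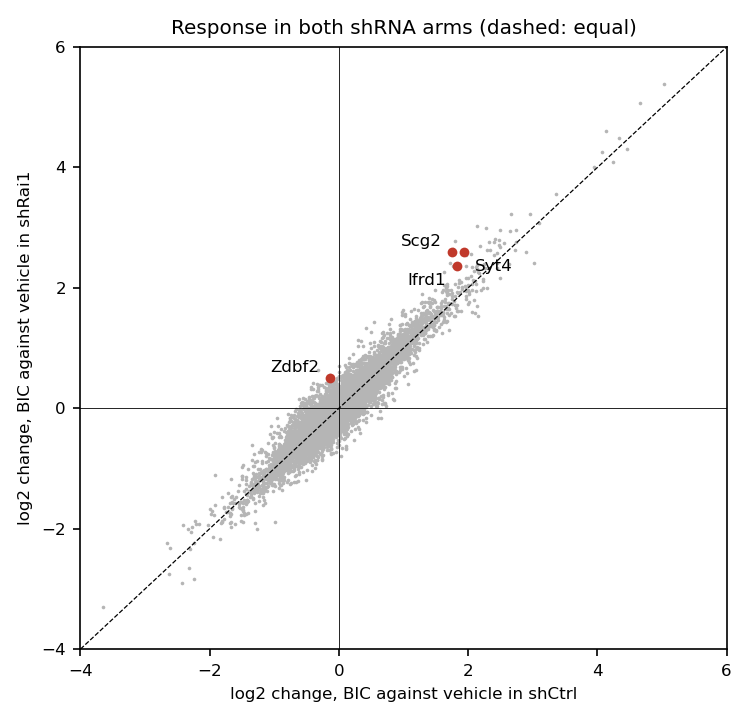
Log2 change under BIC against vehicle in shRai1 (vertical axis) and in shCtrl (horizontal axis), 1 point per gene, with the dashed line where both are equal. The 4 genes whose difference passed, Syt4, Scg2, Ifrd1 and Zdbf2, are in red and lie above the line.

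Silencing gave an opposite reference. Tetrodotoxin (TTX), which blocks sodium channels and stops firing, was applied to shCtrl cultures at 1 µM for the same 4 hours, and these libraries share none with the shRai1 groups. TTX raised 1706 of the 12333 genes (13.8%) and lowered 2247 (18.2%) in the authors' deposited table. Of the 624 genes at least 2-fold higher under BIC in shRai1, 336 (53.8%) were lower under TTX in shCtrl and 23 (3.69%) higher. Of the 329 genes at least 2-fold lower under BIC, 205 (62.3%) were higher under TTX and 21 (6.38%) lower. Among the 5466 genes not called under BIC, 712 (13%) were lower and 506 (9.26%) higher. Among the largest BIC rises, TTX in shCtrl gave Ptgs2 a log2 change of -3.95, Adcyap1 -2.47, Emp1 0.04 and Sp7 0.02 in the authors' deposited table. Emp1 had an implied shCtrl vehicle level of 28.6 and met the minimum through BIC libraries. Log2 changes of low genes are pulled toward 0. The part of this in the values near 0 was not tested, and no difference in response to silencing is read from them. Egr1 was lower under both, at -2.35 with TTX in shCtrl and -0.46 with BIC in shRai1 in the authors' deposited tables. TTX in shRai1 shares its vehicle libraries with BIC in shRai1, so its levels are only set beside them. Implied levels of Npas4 in shRai1 were 920 with TTX, 8679 with vehicle and 23541 with BIC, those of Bdnf were 498, 1529 and 4891, and those of Adora2a were 1084, 686 and 69.7.

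Response size varied with gene length. Among 9855 genes whose listed interval is their own, the share with a rise of at least 2-fold was 4.82% up to 3 kb, 3.88% from 3 to 10 kb and 3.25% from 10 to 30 kb. It was 5.83% from 30 to 100 kb, 10.1% from 100 to 300 kb and 11.2% over 300 kb. Falls of at least 2-fold went from 1.20% in the shortest class to 4.55% in the longest. The median log2 change was lowest from 3 to 10 kb (-0.12) and highest over 300 kb (0.12), and in shCtrl these classes had medians of -0.12 and 0.13. The order differed for genes up to 3 kb, whose median was -0.03 in shRai1 and -0.18, the lowest of all classes, in shCtrl. Counts also rose with length, from a median mean of 119 in the shortest class to 4323 in the longest. Where the mean was at least 500, the rises were 9.52% up to 3 kb (42 genes), 9.89% from 3 to 10 kb (263 genes), 3.81% from 10 to 30 kb and 11.8% over 300 kb. The median log2 change of these genes was highest up to 3 kb (0.20), followed by over 300 kb (0.17), and lowest from 10 to 30 kb (0.0005). The part of depth in the pattern was not tested.

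**Figure D5:**
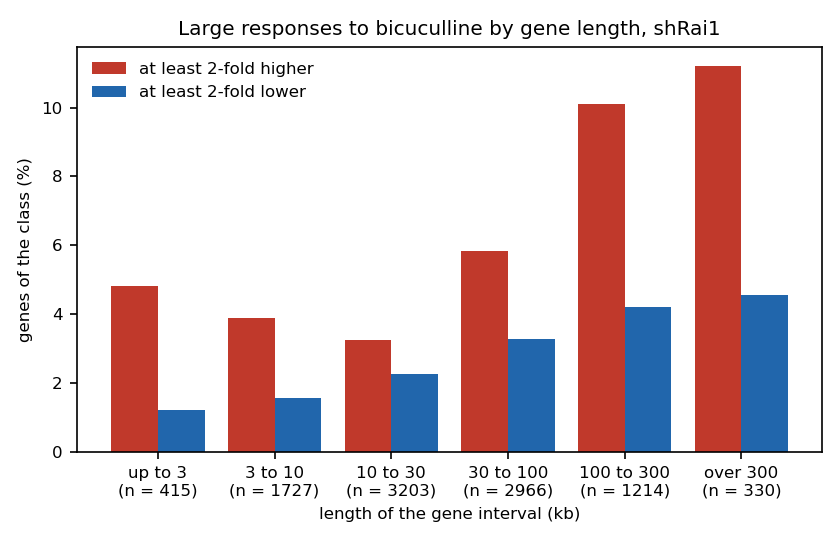
Share of genes (vertical axis, percent of the class) that rose or fell by at least 2-fold under BIC in shRai1, by length of the gene's own interval (horizontal axis, kb, with the number of genes). Rises are least frequent from 10 to 30 kb (3.25%) and most frequent over 300 kb (11.2%).

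Promoter sequences were available from RefSeq (GRCm38.p6), as 250 bases before and 50 after a gene's start, for 9783 of 11958 genes on the chromosomes that table holds (81.8%), and for 483 of 599 genes (80.6%) that rose at least 2-fold. The cAMP response element TGACGTCA, which reads the same on both strands and is bound by CREB, was present in 25 of 622 promoters of the 2-fold rises (4.02%), in 393 of 12627 promoters of all genes described (3.11%) and in 588 of 32851 promoters in the table (1.79%). The AP-1 site TGACTCA, or TGAGTCA on the other strand, was in 5.95%, 3.6% and 5.20% of them. The E-box CACGTG was in 9.65%, 9.83% and 7.15%. The Egr site GCGGGGGCG or GCGTGGGCG, on either strand, was in 7.88%, 6.76% and 3.47%. In promoters of genes not called, the 4 motifs were in 3.4%, 3.58%, 10.2% and 6.09%, in the same order. The median number of CpG sites (C followed by G) was 20 in promoters of the 2-fold rises and 21 in those of all genes described. It was 7 in all listed promoters, which are therefore not a like comparator. None of the 4 motifs contains another. For genes that fell at least 2-fold, 242 of 316 were matched (76.6%), under the 80% set for such a check, which is void for them. These are matches of letters and not evidence of binding.

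The promoters of 3 genes with large rises that hold the cAMP response element, and of 1 with the AP-1 site, are shown to place the element relative to the start. Each is the 250 bases before the gene's start in GRCm38.p6, 5′ to 3′ on the gene's strand, with the motif in capitals, and the 4 were picked after their values were seen. The element begins 68 bases before the start in Scg2 (chr1:79440027-79440276, minus strand), 78 in Pcsk1 (chr13:75089607-75089856, plus strand) and 143 in Dusp1 (chr17:26508473-26508722, minus strand). The AP-1 site begins 145 bases before the start in 1 of 2 listed Emp1 promoters (chr6:135362681-135362930, plus strand).
Scg2: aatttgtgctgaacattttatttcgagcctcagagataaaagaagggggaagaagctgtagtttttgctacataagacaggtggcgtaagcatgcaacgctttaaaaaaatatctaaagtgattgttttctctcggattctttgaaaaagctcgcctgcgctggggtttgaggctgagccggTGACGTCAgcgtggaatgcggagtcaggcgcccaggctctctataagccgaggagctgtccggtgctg
Pcsk1: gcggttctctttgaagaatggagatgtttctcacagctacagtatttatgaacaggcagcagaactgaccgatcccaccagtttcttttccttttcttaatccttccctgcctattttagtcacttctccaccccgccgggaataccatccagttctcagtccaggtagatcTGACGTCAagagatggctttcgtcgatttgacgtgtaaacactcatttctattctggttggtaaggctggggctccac
Dusp1: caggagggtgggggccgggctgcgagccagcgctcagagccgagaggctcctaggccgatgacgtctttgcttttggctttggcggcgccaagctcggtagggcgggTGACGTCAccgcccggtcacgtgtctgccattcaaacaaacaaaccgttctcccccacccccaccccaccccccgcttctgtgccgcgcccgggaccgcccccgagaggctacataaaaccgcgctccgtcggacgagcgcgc
Emp1: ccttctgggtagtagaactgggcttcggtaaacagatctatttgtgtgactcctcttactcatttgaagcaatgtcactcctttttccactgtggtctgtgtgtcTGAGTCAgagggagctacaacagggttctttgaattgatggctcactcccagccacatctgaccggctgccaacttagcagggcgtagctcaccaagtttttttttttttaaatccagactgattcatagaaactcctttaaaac
The rises of these genes were 6.05-fold for Scg2, 4.99-fold for Pcsk1, 4.82-fold for Dusp1 and 22.3-fold for Emp1. In total, 23 genes with a rise of at least 2-fold held the element in a listed promoter. Among the 20 besides Scg2, Pcsk1 and Dusp1, the largest rises were Epha2 (2.16) and Plk2 (2.06) and the smallest Rap1b (1.03) and Kif18a (1.03) in the authors' deposited table. The letters of the element are not in the windows listed for Inhba, Pdyn and Map3k5.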

How the data were processed

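Bru-seq reads were aligned with TopHat2 2.1.0 and Bowtie2 2.2.6 to mm9 and compared with DESeq2, per the submitters' processing notes, whose DESeq2 version is not given in the sources used here. The authors deposited 7 comparison tables of 22919 genes, of which 6 were used and 1 without gene names was not. Their mean column is, per the file headers, a scaled signal averaged over all libraries by the authors. The Wald score that the authors deposited equals the log2 change over its SE. The log2 changes were pulled toward 0 for low genes, reaching 0.73 at most under a mean of 1, and the tables came from 1 fit, since log2 changes closed to within 2e-09. The authors' deposited FPKM table gave pooled values per condition and intervals, whose starts were read as 0-based. Its shCtrl columns served for a check of levels, and 4 FPKM columns were not used.

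Calls rest on the authors' deposited adjusted p-values at 0.05. Levels of the 6 groups were solved from the mean, the group sizes and the log2 changes, and the shCtrl levels per kb had a rank correlation of 0.82 and 0.81 (vehicle, BIC) with the pooled FPKM over 9834 genes. They are model values and carry no error of their own beyond the SE of the log2 change. Intervals listed for more than 1 gene (2456 genes, 19.9%) are named as shared, and lengths are used only where the interval is a gene's own. The difference between arms was a Wald test on the deposited log2 changes and SEs. These log2 changes are pulled toward 0 for low genes, and the part of this in the difference was not tested. The design had assumed that values per library might be present, and tests on them were replaced by the deposited ones. The rule for naming took Rai1 and, among called genes, the 15 largest rises and the 15 largest falls. It also took, among called genes, the 10 with the largest scores and the 10 densest per kb. Genes past 0.05 between arms were added, with up to 4 rises and 4 falls in each of 28 function lists and 5 marker lists. Nfil3, Per2 and a few others stand in more than 1 list. The genes described and the lists were chosen with earlier results of these data known. Calculations used Python 3.11.15, pandas and SciPy. Some genes that this rule names are not reported here.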

Additional observations from a re-analysis of the deposited data

Results flagged for a closer look

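A difference between the shRNA arms singled out 4 genes, each by the Wald test of the BIC response in shRai1 minus that in shCtrl, adjusted over all genes tested. The differences on the log2 scale were 0.66 for Syt4, 0.65 for Zdbf2, 0.54 for Ifrd1 and 0.85 for Scg2. With each response centred on its median the adjusted p was 0.027 for Syt4 and Zdbf2 and 0.047 for Ifrd1 and Scg2. TTX in shCtrl gave them log2 changes of -1.11, -1.48, -1.55 and -2.06 in the same order in the authors' deposited table. TTX lowered 18.2% of the 12333 genes. These changes are read against the shCtrl vehicle libraries that also enter the difference between arms. A high value in those libraries raises the difference and lowers the TTX change, so the TTX values are no separate evidence for the 4 genes. A search for single libraries apart from their group could not be made on values per group.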

How the results depend on the processing

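The 6867 calls moved to between 5512 and 7504 over 8 alternatives in threshold, minimum mean, centring, adjustment and shared intervals, and to 1534 (983 higher, 551 lower) when each gene was tested against an absolute log2 change of 0.5. The 953 calls of at least 2-fold moved to between 794 and 1284. The difference between arms gave 4 genes under each alternative but one, and 0 at an adjusted p of 0.01, where 564 of 21192 genes had an unadjusted p under 0.05 in the same Wald test and no other tool was run. With both thresholds at 0.01, the 1255 genes higher under BIC and lower under TTX became 966, and the 1043 with the reverse became 701. Of 233 named genes, 228 stayed on the same side of the threshold when changes were centred on the median, Rai1 among them as not called, and Bcan, Dusp8, Lrrtm2, Nrg3 and Ptges2 no longer passed. The median of the vesicle list, -0.0015, became 0.031 when centred. No paired analysis was possible because no value per library was used, and leaving out each replicate was not run for the same reason. Depth limits low genes most: their log2 changes are pulled toward 0, and a gene near the minimum has an SE near 0.25.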

Other observations

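Gene families grouped by symbol after their values were seen, with no test of the group, moved in both directions. Of 32 Ube2 genes for ubiquitin conjugation, 15 rose and 2 fell under BIC in shRai1 (median log2 change 0.18), and of 51 translation initiation factor genes 20 rose and 6 fell (0.098). Deubiquitinases of the Usp family had 19 rises and 9 falls among 45 (0.12). Vps genes of endosomal sorting had 6 rises and 16 falls among 32 (-0.27), TBC domain genes, which act on Rab proteins, 4 rises and 15 falls among 28 (-0.26), and centrosomal Cep genes 6 and 17 among 32 (-0.28). Mitochondrial ribosomal proteins had 9 rises and 24 falls among 74 (-0.17). Cytosolic ribosomal proteins had few calls, with 6 rises and 1 fall among 45 of the large subunit and 3 and 2 among 31 of the small one. All members showed 26.9% higher and 28.8% lower.

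Neighbouring genes on 1 strand were also compared. In 878 pairs of genes with their own intervals, at most 10 kb apart, the downstream gene was higher in 168 (19.1%) and lower in 262 (29.8%). After a gene that rose at least 2-fold it was higher in 16 of 29 (55.2%), and after a gene that fell at least 2-fold it was lower in 8 of 14 (57.1%). Examples are Pde10a (1.30) with 1700010I14Rik (2.01), Fnip1 (1.08) with Rapgef6 (1.46), and the run Med13 (1.53), Ints2 (1.11) and Brip1 (1.41), as log2 changes in the authors' deposited table.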
